A study of Mus musculus with 6 samples.

Results

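The genes described here are 10 components of the mammalian circadian clock, Clock, Arntl, Per1, Per2, Per3, Cry1, Cry2, Nr1d1, Nr1d2 and Dbp, measured in nephron progenitor cells of the fetal mouse kidney. They were chosen by gene symbol, and all 10 were found among the 52386 genes of the deposited table. RNA was sequenced from 6 libraries of GFP-positive cells sorted from E18.5 embryonic kidneys. There were 3 libraries from food-restricted pregnancies and 3 from pregnancies on the control diet. The restricted diet was given throughout pregnancy. Its size is unsettled, since the sample labels state 30% daily caloric intake while 70% stands in the series text. All 6 libraries carry the genotype label CD-1/Six2 Cre tg/+, so the transgene is shared by both diets. CD-1 is an outbred strain, and Six2 is the gene whose promoter drives Cre in nephron progenitors. The sources used here do not give the time of day at which kidneys were collected, the number of embryos behind a library, their sex or their litters. A difference between the diets in any of these cannot be told apart from diet. The series text calls the libraries biological replicates, yet nothing ties a library to a litter, and every p-value refers only to the spread among these 6 libraries.

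The circadian clock is a transcriptional feedback loop that most mammalian cells run on their own. The proteins CLOCK and ARNTL (also called BMAL1) bind as a dimer to E-box sequences and activate the Per, Cry, Nr1d and Dbp genes; PER and CRY proteins then inhibit that dimer. The nuclear receptors encoded by Nr1d1 and Nr1d2 (REV-ERB alpha and beta) repress Arntl, the related ROR receptors activate it, and DBP carries the rhythm to further genes through D-box sequences. In the adult kidney the clock is known for daily rhythms of tubular transport, and in adult rodents the timing of meals is known to shift clocks in peripheral organs.

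Of the 10 clock genes, Nr1d2 was the only one that passed the test, and it rose 1.29-fold in food-restricted progenitors. The other 9 were not called, whether activators, repressors or the output gene Dbp. Per3 and Nr1d1 were also higher in every food-restricted library than in any control library, without passing the test. The test was limma on log2 of the authors' normalized count plus 1, over the 25157 genes with a normalized value, with Benjamini-Hochberg adjusted p under 0.05 as the threshold. By that rule 4.74% of all genes tested were called, 2.24% as higher and 2.50% as lower, against 1 clock gene of 10 as higher and 0 lower. The calls over all genes were 563 higher and 630 lower, and with libraries scaled by their total count 755 higher and 444 lower. Among genes with a mean normalized count of at least 30, which includes every clock gene here, 8.53% were called. For 3 of the 10 clock genes all food-restricted libraries lay above all controls; this held for 9.48% of all genes tested and for 13.1% of those with a mean of at least 30. For 0 clock genes did all food-restricted libraries lie below all controls, which held for 10.2% of all genes tested. In limma, 2 of the 10 had an unadjusted p under 0.05, both higher, and limma-voom on the counts called those 2, Nr1d2 and Per3. In the authors' deposited table, a DESeq2 comparison, 3.18% of genes had an adjusted p under 0.05, and 1 of the 10 clock genes did, again Nr1d2. The median log2 fold change of the 10 genes was 0.12, beside -0.0028 over all genes tested. Mean normalized counts were higher in food-restricted libraries for 8 of them and lower for 2, Arntl and Cry1, although the log2 fold change of Per2 turned to -0.0074 once a trend with gene length was removed. These are bulk RNA samples, in which fewer cells of a type and less RNA per cell cannot be told apart.

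**Figure D1:**
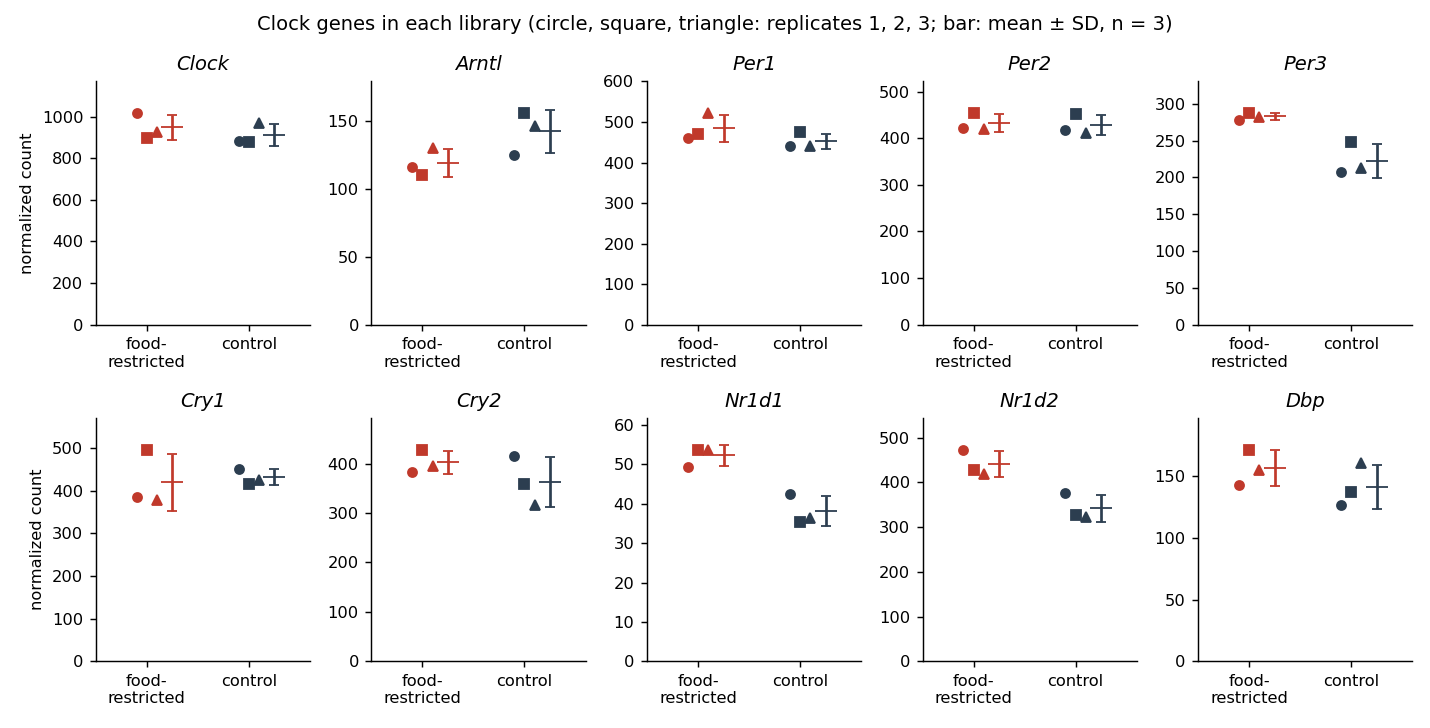
Normalized count (vertical axes, each starting at 0) of each clock gene in the 3 food-restricted libraries (red, left) and the 3 control libraries (dark blue, right), with circles, squares and triangles for replicates 1, 2 and 3 and bars for mean ± SD (n = 3 each). All red points lie above all blue points for Per3, Nr1d1 and Nr1d2, of which Nr1d2 alone passed the test, and the groups overlap for the other 7.

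All 10 genes were detected in every library, with raw counts of 28 to 1411. Per kilobase of exon, the level of Cry1, a repressor of the CLOCK and ARNTL dimer, came first at a mean of 127 normalized counts per kb over the 6 libraries. Per1 followed at 83.2 normalized counts per kb, and the ranges of Cry1 and Per1 over the libraries did not overlap. The range of Per1 did not overlap that of the next gene, Per2, but did overlap that of Nr1d2. The levels of Per2 at 73.4, Nr1d2 at 72.3, Clock at 67.7, Cry2 at 60.6 and Dbp at 49.7 normalized counts per kb formed a run in which each range over the libraries overlapped that of its neighbour. Per3 stood apart below them at 26.3 normalized counts per kb, and then came Arntl at 17.4 and Nr1d1 at 14.7 normalized counts per kb, whose ranges overlapped. The 2 dimer partners thus differed in RNA level per length without overlap, with Clock at 69.0 ± 4.53 and Arntl at 15.8 ± 1.36 normalized counts per kb in food-restricted libraries, beside 66.4 ± 3.76 and 19.0 ± 2.11 normalized counts per kb in controls (SD, n = 3 each). So did the paired REV-ERB genes, with Nr1d2 at 81.4 ± 5.40 and Nr1d1 at 17.0 ± 0.837 normalized counts per kb in food-restricted libraries, beside 63.2 ± 5.53 and 12.4 ± 1.24 normalized counts per kb in controls (SD, n = 3 each). The order of the group means differed between the diets in places, and this was not tested. In food-restricted libraries the mean of Nr1d2 per kb was above that of Per2 (73.8) and the mean of Nr1d1 above that of Arntl, while in controls Nr1d2 was below Per2 (73.0) and Clock, and Nr1d1 below Arntl. Exon lengths, summed over all annotated exons of a gene, ran from 2993 bases for Dbp to 13727 for Clock, so a gene with long exons that these cells do not use is placed too low.

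**Figure D2:**
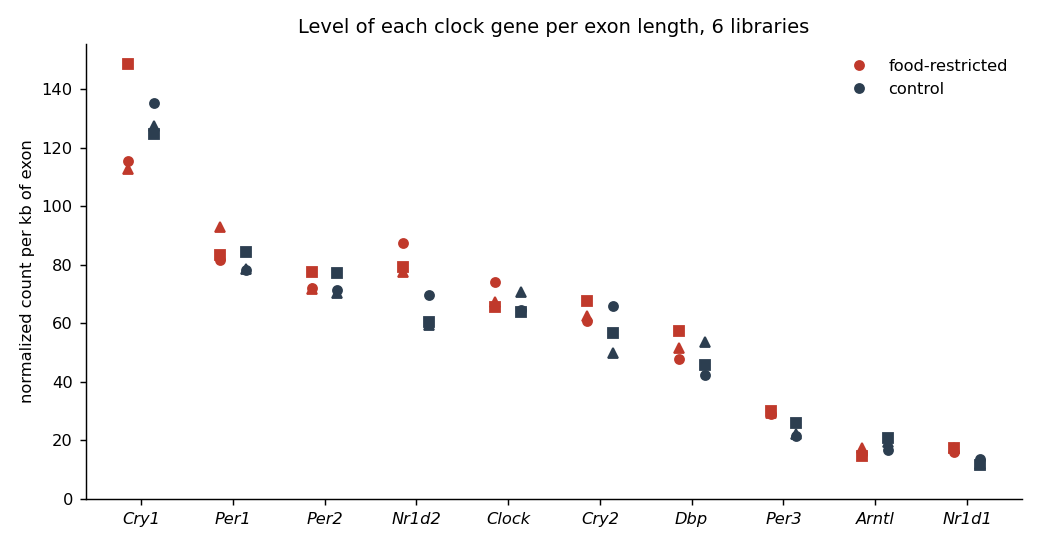
Normalized count per kb of exon (vertical axis) of the 10 clock genes, ordered by their mean, in food-restricted (red, left of each pair) and control libraries (dark blue, right), with circles, squares and triangles for replicates 1 to 3. Cry1 lies highest, 5 genes from Per2 to Dbp form an overlapping run, and Per3, Arntl and Nr1d1 lie lowest.

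Neither activator passed the test. Clock, the histone acetyltransferase partner of the dimer, had 1018, 899 and 925 normalized counts in food-restricted replicates 1 to 3, against 884, 878 and 970 in control replicates 1 to 3. The libraries overlapped and the log2 fold change was 0.06 (95% interval -0.08 to 0.19, limma adjusted p = 0.777). Arntl, the main partner of CLOCK and the target of REV-ERB repression, had 116, 111 and 130.5 normalized counts in food-restricted libraries, against 125, 156 and 147 in controls. Food-restricted replicate 3 exceeded control replicate 1, so the groups overlapped. The log2 fold change of Arntl was -0.26 (95% interval -0.56 to 0.04, limma adjusted p = 0.431). Its interval was wider than that of Clock.

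Among the period genes, whose proteins act with the cryptochromes as repressors, Per1 and Per2 did not pass the test and Per3 lay close to the threshold. Per1 had 459.5, 470.2 and 523 normalized counts in food-restricted libraries, against 441, 474 and 442 in controls, with overlap between the groups and a log2 fold change of 0.10 (95% interval -0.08 to 0.27, limma adjusted p = 0.666). Per2 had 422.5, 454 and 419.7 normalized counts in food-restricted libraries, against 419, 452 and 412 in controls. The groups nearly coincided, and the log2 fold change of 0.02 had a 95% interval of -0.16 to 0.19 (limma adjusted p = 0.964). Per3 had 278, 288 and 283 normalized counts in food-restricted libraries, against 207, 248 and 212 in controls. Every food-restricted library exceeded every control, and the food-restricted replicates were close to one another, with an SD of 1.68% of their mean, beside 10.2% in controls. The log2 fold change of Per3 was 0.35 with a standard error of 0.11 (95% interval 0.13 to 0.57), and its limma adjusted p of 0.0551 missed the threshold. Without control replicate 2, the highest control, the limma adjusted p of Per3 was 0.0375, and in the 5 fits without one of the other libraries it missed the threshold, up to 0.219. Per3 was called as higher under 5 other settings of the test, with limma adjusted p between 0.0322 and 0.0484 (a stricter filter on low counts, 3 other scalings and limma-voom). It was not called with a pseudocount of 0.5 (limma adjusted p = 0.0598) or 5 (0.0506), with a replicate block (0.0713) or with a gene length trend removed (0.105). In the authors' deposited table the adjusted p of Per3 was 0.155.

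Per3 lies on the reverse strand of chromosome 4, chr4:151003652-151044665 in GRCm38, wholly inside Camta1, a gene on the same strand that encodes a calmodulin-binding transcription activator. The whole 41014 bases of Per3 are shared, and reads of unspliced Camta1 RNA over Per3 exons cannot be told apart from Per3 reads. Camta1 had 1134, 1168 and 1067 normalized counts in food-restricted libraries, against 1015, 1020 and 1019 in controls. All its food-restricted libraries also lay above all controls, and its log2 fold change was 0.14 (limma adjusted p = 0.249). Its part in the Per3 values was not tested.

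The cryptochromes, the second arm of the repressor complex, were not called. Cry1 had 386, 496 and 377 normalized counts in food-restricted libraries, against 452, 417 and 426 in controls. Food-restricted replicate 2 was the highest of the 6 libraries and the other food-restricted libraries were the lowest, so the SD was 15.9% of the mean in food-restricted libraries, beside 4.25% in controls. The log2 fold change of Cry1 was -0.05 (95% interval -0.24 to 0.14, limma adjusted p = 0.871). Cry2 had 384, 428 and 395 normalized counts in food-restricted libraries, against 416, 358 and 315 in controls. Control replicate 1 lay within the food-restricted range, and the log2 fold change of Cry2 was 0.16 (95% interval -0.04 to 0.35, limma adjusted p = 0.473).

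The REV-ERB genes gave the one call. Nr1d2, which encodes the repressor REV-ERB beta, had 474, 428 and 419 normalized counts in food-restricted libraries, against 376, 328 and 322 in controls. Each food-restricted library was above each control, and the means were 440.3 ± 29.2 normalized counts in food-restricted libraries and 342 ± 29.9 normalized counts in controls (SD, n = 3 each). The log2 fold change was 0.37 with a standard error of 0.09 (95% interval 0.18 to 0.56, limma adjusted p = 0.0102). The authors' deposited table gives Nr1d2 a log2 fold change of 0.35 with a standard error of 0.11 and an adjusted p of 0.0459. Nr1d2 kept its call under each of 9 other settings of scaling, filter, pseudocount and model, with limma adjusted p of 0.0051 to 0.0258. It lost the call without control replicate 2 (limma adjusted p = 0.0663), without control replicate 3 (0.0773) and without food-restricted replicate 1 (0.0643), while its log2 fold change stayed between 0.31 and 0.44 in the 6 fits that each left out 1 library. Nr1d1, which encodes REV-ERB alpha, had 49.3, 53.7 and 53.8 normalized counts in food-restricted libraries, against 42.4, 35.3 and 36.5 in controls. These groups did not overlap either, and the log2 fold change of 0.45 was at least as large as that of Nr1d2, with a wider 95% interval of -0.05 to 0.95 (limma adjusted p = 0.390). The raw count of Nr1d1 was as low as 28 in a library, the lowest of the 10 genes.

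Nr1d1 (chr11:98767932-98775333, reverse strand, GRCm38) shares 1075 bases at its 3′ end with Thra, a gene on the opposite strand that encodes thyroid hormone receptor alpha. Thra had 1012, 1233 and 1148 normalized counts in food-restricted libraries, against 951, 936 and 880.3 in controls, and it rose (log2 fold change 0.29, limma adjusted p = 0.00354). Without food-restricted replicate 2 the limma adjusted p of Thra was 0.114. The libraries were made with a stranded kit, but the sources used here do not say whether counting used strand, and the part of Thra reads in the Nr1d1 values was not tested.

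Nr1d2 lies on the reverse strand of chromosome 14, chr14:18204054-18239127 in GRCm38. Its promoter is shown because Nr1d2 was the called clock gene, and that of Per3 because it followed the same split between the libraries. Both are RefSeq windows of 250 bases before and 50 bases after the start site on GRCm38.p6, read 5′ to 3′ on the reverse strand, chr14:18239057-18239356 for Nr1d2 and chr4:151044616-151044915 for Per3. Capitals mark the AGGTCA motif, the core of the sequence that REV-ERB and ROR receptors bind, in Nr1d2 and the D-box TTATGTAA, bound by DBP and its relatives, in Per3.
Nr1d2: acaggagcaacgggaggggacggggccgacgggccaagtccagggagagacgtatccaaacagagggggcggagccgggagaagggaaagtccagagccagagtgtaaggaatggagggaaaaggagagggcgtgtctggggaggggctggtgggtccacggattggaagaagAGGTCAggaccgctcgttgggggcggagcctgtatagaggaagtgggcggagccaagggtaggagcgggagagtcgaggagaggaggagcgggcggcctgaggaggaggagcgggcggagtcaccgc
Per3: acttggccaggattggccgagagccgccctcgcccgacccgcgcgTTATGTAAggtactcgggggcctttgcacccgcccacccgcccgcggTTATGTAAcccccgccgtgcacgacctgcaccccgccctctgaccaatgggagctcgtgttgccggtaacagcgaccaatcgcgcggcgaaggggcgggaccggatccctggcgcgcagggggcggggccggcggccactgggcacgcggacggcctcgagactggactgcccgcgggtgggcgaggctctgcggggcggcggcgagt
Positions are counted from the start site at the first base of the motif. The AGGTCA of Nr1d2 lay at -77, and the Per3 promoter held 2 D-boxes at -205 and -158. On either strand, AGGTCA occurred in 16.3% of 32851 promoter windows of this length, the D-box TTATGTAA in 0.938% and the E-box CACGTG in 7.15%. A window with 2 or more such D-boxes was found in 0.0213% of promoters, 7 in all, Per3 among them. Of the 10 clock genes 9 matched the promoter table, with 13 windows, and Per2 did not. An E-box lay in the windows of 2 of them, Cry1 at -60 and Per1 at -166. AGGTCA lay in those of 4, which besides Nr1d2 were Per1 at -137, Clock at -119 and Arntl at 31 bases past the start. The D-box occurred in Per3 only among the 9. Nr1d1 followed the same split between the libraries as Nr1d2 and Per3. Its window, which is not shown, held 0 matches to the E-box, the D-box or AGGTCA. A match of letters is a description of the window and does not show that a factor binds there.

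Dbp, the output factor that activates genes through D-boxes and that follows the CLOCK and ARNTL dimer closely in adult tissues, was not called. It had 143, 171.5 and 155 normalized counts in food-restricted libraries, against 126, 137 and 161 in controls. Control replicate 3 exceeded food-restricted replicates 1 and 3, so the groups overlapped, and the log2 fold change was 0.15 (95% interval -0.14 to 0.43, limma adjusted p = 0.697). Dbp shares 737 bases with Sphk2, a sphingosine kinase gene on the opposite strand, which was not called (limma adjusted p = 0.642). Of the other genes that overlap a clock gene, Gm43658 (limma adjusted p = 0.760) and Ube2n-ps1 (limma adjusted p = 0.630) lie within Clock and were not called. Gm45355 (opposite Arntl) and D930015M05Rik (opposite Cry2) were not among the genes tested.

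Set against Arntl in the same library, Nr1d2 had the higher normalized count throughout. The ratio of Nr1d2 to Arntl was 4.08, 3.87 and 3.21 in food-restricted replicates 1 to 3, against 3.0, 2.096 and 2.19 in control replicates 1 to 3. All food-restricted libraries lay above all controls in this ratio, which is given as a description of the values above and was not tested.

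**Figure D3:**
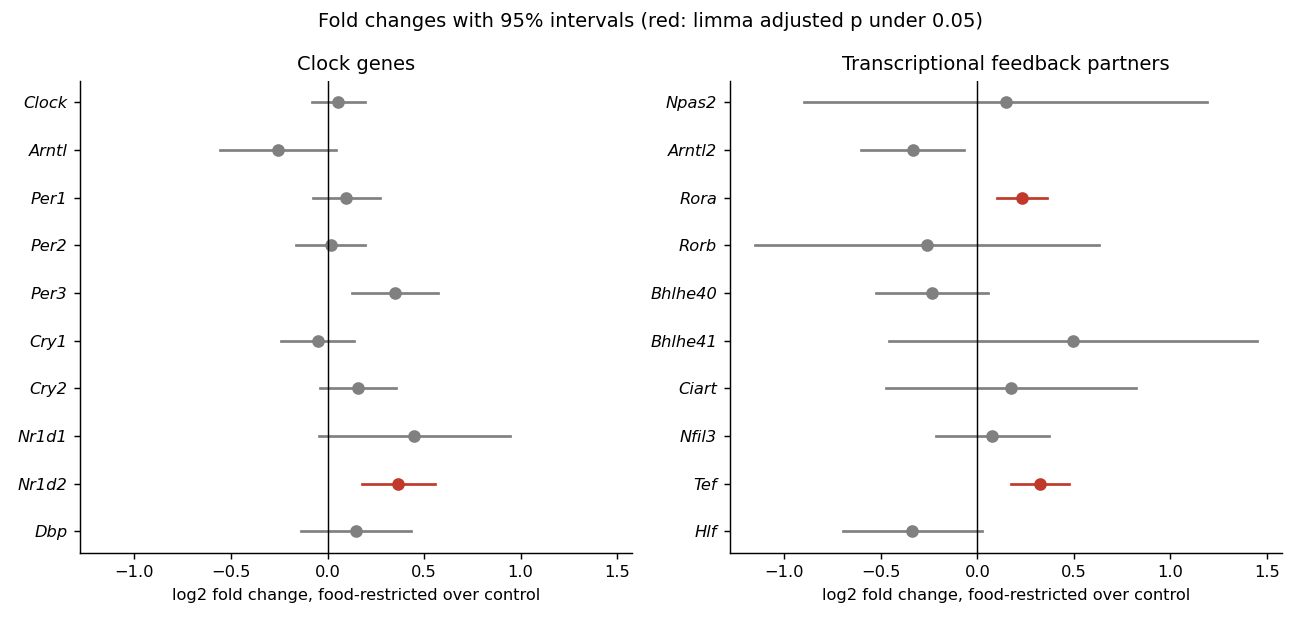
Log2 fold change, food-restricted over control (horizontal axes), with 95% intervals, of the 10 clock genes (left) and of 10 transcriptional partners of the clock (right), with red for limma adjusted p under 0.05. The intervals of Nr1d2, Rora and Tef lie above 0 and are red. That of Per3 lies above 0 and that of Arntl2 below 0, both without a call.

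Genes that work with these 10 were read from 4 lists holding 45 further genes in all. Of the 45, 3 rose, Tef and Rora among them, 0 fell and 42 were not called, and their median log2 fold change was 0.03. At an unadjusted p under 0.05 limma had 5 higher and 3 lower; limma-voom called 4 higher and 1 lower, and the authors' deposited table called 3 higher and 0 lower. The share of 3 in 45 compares with the 4.74% called among all genes tested. Among genes with a mean normalized count of at least 30, which leaves out some of the 45, 8.53% were called.

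The first list held 11 transcription factors of the feedback loops, of which Tef and Rora rose and 9 were not called. Tef encodes a D-box activator of the same family as Dbp. It had 725, 789 and 792 normalized counts in food-restricted libraries, against 586.5, 638 and 619 in controls. The groups did not overlap, and the log2 fold change of Tef was 0.32 with a standard error of 0.08 (limma adjusted p = 0.00331). Its call held under every setting tried and without any one library, with limma adjusted p of 0.00151 to 0.0489. Rora, the ROR receptor that activates Arntl through the sites at which REV-ERB represses it, had 1146, 1138 and 1172 normalized counts in food-restricted libraries, against 937, 965 and 1045 in controls. All food-restricted libraries were again above all controls, and the log2 fold change of Rora was 0.23 with a standard error of 0.06 (limma adjusted p = 0.0201). Rora lost its call when a trend with gene length was removed (limma adjusted p = 0.0869), without control replicate 1 (0.140), without control replicate 2 (0.0981), without food-restricted replicate 2 (0.0654) and without food-restricted replicate 3 (0.122). Its paralogue Rorb was not called (limma adjusted p = 0.853). Hlf, the other D-box activator of the family, had a mean of 84.9 normalized counts in food-restricted libraries and 110.0 in controls, and a log2 fold change of -0.34 that was not called (limma adjusted p = 0.370). The D-box repressor Nfil3 was not called either (0.08, limma adjusted p = 0.871). Arntl2, the paralogue of Arntl, had 155, 136 and 174 normalized counts in food-restricted libraries, against 181, 201 and 204 in controls. Its food-restricted libraries all lay below the controls, with a log2 fold change of -0.34 that did not pass (limma adjusted p = 0.156).

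The promoter of Tef is shown because Tef had the lowest p among these partners. It is the RefSeq window chr15:81802423-81802722 on the forward strand of GRCm38.p6, with the E-box CACGTG, bound by the CLOCK and ARNTL dimer, in capitals at -127.
Tef: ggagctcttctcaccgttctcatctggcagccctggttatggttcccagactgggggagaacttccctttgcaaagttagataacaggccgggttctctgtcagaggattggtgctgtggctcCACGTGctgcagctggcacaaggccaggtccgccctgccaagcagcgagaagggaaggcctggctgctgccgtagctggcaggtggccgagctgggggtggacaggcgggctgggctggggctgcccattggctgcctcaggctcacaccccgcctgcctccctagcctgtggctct
A second start site of Tef, with the window chr15:81811164-81811463 on the same strand, had an E-box at -138.

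The second list held 16 kinases and turnover factors that set the stability of PER and CRY proteins, among them the casein kinases, Gsk3b and the AMPK subunits. None passed in limma, limma-voom or the authors' deposited table, and 1 had an unadjusted limma p under 0.05. This was Csnk2b, the regulatory subunit of casein kinase 2, with 662, 658 and 697 normalized counts in food-restricted libraries, against 775, 744 and 775 in controls. Its food-restricted libraries all lay below the controls, and its log2 fold change was -0.19 (limma adjusted p = 0.152). The third list held 14 chromatin and RNA-binding cofactors, of which 1 rose and 13 were not called. The corepressor Ncor1 (limma adjusted p = 0.840) and its deacetylase Hdac3 (limma adjusted p = 0.923), which act with the REV-ERB receptors, were not called. Nono, a PER-associated RNA-binding protein, had means of 5867 ± 302.6 normalized counts in food-restricted libraries and 6384 ± 123 normalized counts in controls (SD, n = 3 each) and missed the threshold (log2 fold change -0.12, limma adjusted p = 0.0517). The fourth list held 8 output genes, 3 of them shared with the first list and 1 with the second. Tef rose, and the other 7, among them Wee1 (limma adjusted p = 0.642) and Nampt (limma adjusted p = 0.591), were not called.

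**Figure D4:**
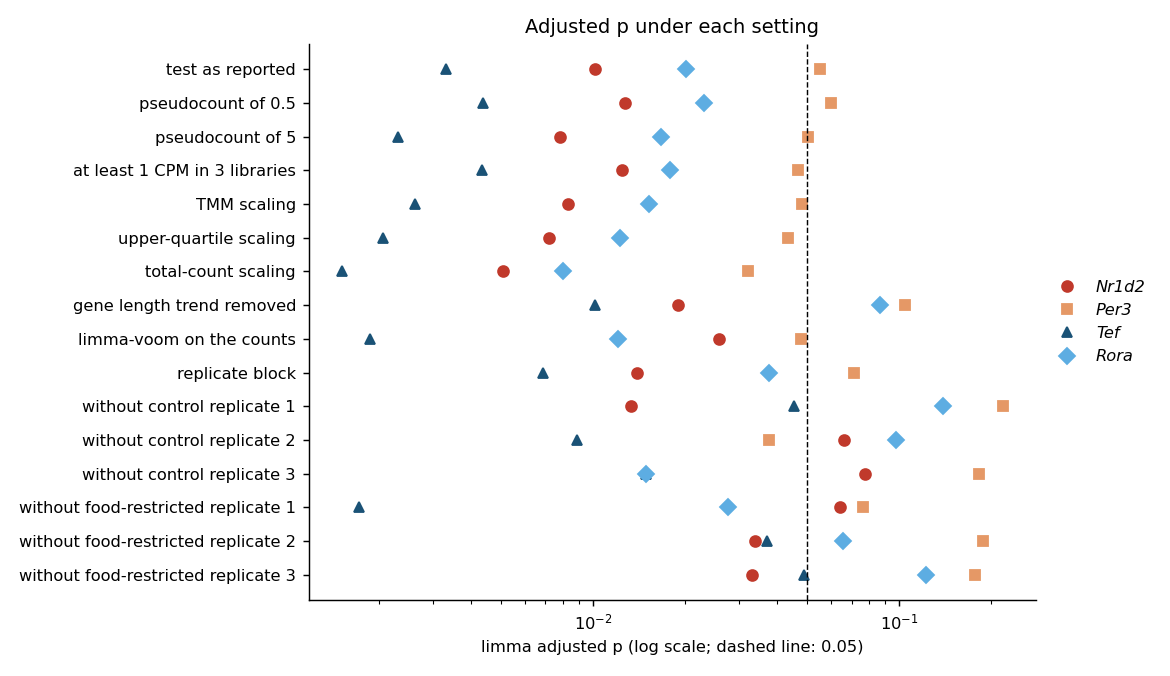
Limma adjusted p (horizontal log axis, with the threshold of 0.05 dashed) of Nr1d2, Per3, Tef and Rora under the test as reported and each other setting (rows). Tef lies left of the line in every row, Nr1d2 in all but 3 and Rora in all but 5, and Per3 lies left of the line in 6 rows.

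Signals known to reset clocks in other tissues were read from another pair of lists. Of 10 genes of glucocorticoid input, Sgk1, a kinase gene that glucocorticoid and mineralocorticoid receptors activate, rose and 9 were not called, among them the receptor Nr3c1 (limma adjusted p = 0.647) and the receptor target Fkbp5 (limma adjusted p = 0.971). In the authors' deposited table and in limma-voom 0 of the 10 were called. Sgk1 had 202.5, 138 and 170 normalized counts in food-restricted libraries, against 129, 110 and 118 in controls, a log2 fold change of 0.50 (limma adjusted p = 0.0342). The groups did not overlap, but the call was lost in limma-voom (adjusted p = 0.0879), without control replicates 1 (0.0656), 2 (0.145) or 3 (0.0998) and without food-restricted replicates 1 (0.236) or 3 (0.157). Of 13 immediate-early and CREB-related genes, Fos and Fosb fell, Jun rose and 10 were not called. The counts of both lists compare with 4.74% called among all genes tested. Among genes with a mean normalized count of at least 30, which leaves out some members of both lists, 8.53% were called. Fos had 785, 734 and 725 normalized counts in food-restricted libraries, against 1026, 1067 and 1030.0 in controls, a log2 fold change of -0.48 (limma adjusted p = 6.97e-07). The log2 fold change of Fosb was -0.34 (limma adjusted p = 0.000566) and that of Jun 0.31 (limma adjusted p = 0.000359), and the calls of Fos, Fosb and Jun held under every setting and without any one library.

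The genes closest to Nr1d2 across the 6 libraries were Tfcp2, Igsf10 and Rbm38, which had the highest Pearson correlations with it on the log2 scale, 0.996, 0.995 and 0.988, among 10059 genes with a mean of at least 100 normalized counts. With 6 libraries in 2 diet groups these values describe a shared split between the diets as much as any spread within them. Rbm38, an RNA-binding protein gene, had 331, 307 and 297 normalized counts in food-restricted libraries, against 242, 213 and 196 in controls, and rose (log2 fold change 0.52, limma adjusted p = 0.00104). Tfcp2 (0.15, limma adjusted p = 0.390) and Igsf10 (0.23, limma adjusted p = 0.188) were not called.

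Library totals were 6515127, 14188081 and 16763479 counts in food-restricted replicates 1 to 3, against 12338593, 10881013 and 10686582 counts in control replicates 1 to 3. The labelled cell type was present, with Six2 at 3989 ± 142 normalized counts in food-restricted libraries and 4160.0 ± 191 in controls (SD, n = 3 each), and of 8 progenitor markers 6 were not called. Pax2 rose (log2 fold change 0.28, limma adjusted p = 7.48e-06) and Meox1 fell (-0.42, limma adjusted p = 0.00153). Some genes of other cells differed between the diet groups. Over all genes tested 4.74% were called, 2.24% as higher and 2.5% as lower, beside the marker counts given here. The summed normalized counts of 10 proximal tubule markers were 3308 to 3313 in food-restricted libraries, against 5707 to 6127 in controls, with 8 of the 10 lower, Lrp2 among them. Of 8 stroma markers 4 rose, Col1a1 among them (sums 3394 to 3721 in food-restricted libraries, against 2971 to 3029 in controls), and of 8 macrophage markers 4 rose, Csf1r among them (sums 416 to 474 in food-restricted libraries, against 255 to 279 in controls). Ureteric markers summed to 197 to 259 in food-restricted libraries, against 285 to 305 in controls, with 1 of 6 lower, Hoxb7 (means of 147 normalized counts in food-restricted libraries and 221 in controls), and Aqp2 at 0 in control replicates 2 and 3. The other 5 were not called, and the median log2 fold change of the 6 was 0.10. Ret averaged 7.01 normalized counts in food-restricted libraries and 5.67 in controls. Endothelial markers summed to 124 to 183 in food-restricted libraries, against 121 to 158 in controls, and Pecam1 averaged 68.8 normalized counts in food-restricted libraries and 58.6 in controls. Erythroid markers summed to 345 to 390.1 in food-restricted libraries, against 369 to 421 in controls. None of the 6 endothelial and 6 erythroid markers was called in limma, limma-voom or the authors' deposited table, and 0 had an unadjusted limma p under 0.05. Sex-linked RNA also differed between the diet groups. The sex of the embryos is not given, so a difference in the mix of sexes cannot be told apart from diet. The X-linked Xist averaged 26600 ± 547 normalized counts in food-restricted libraries and 17650 ± 840.3 in controls, and the Y-linked Ddx3y averaged 336 ± 22.0 in food-restricted libraries and 749 ± 58.3 in controls (SD, n = 3 each). The part of these shifts in the values of Nr1d2, Per3, Tef and Rora was not tested.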

How the data were processed

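The submitters' processing notes name the build GRCm38 and these tools: DESeq2 1.22.1, HTSeq 0.6.0, TopHat2 2.1.1, cutadapt 1.18 and bcl2fastq 2.18.0.12. Whether counting used strand is not stated in them. The deposited table holds whole-number read counts per library for 45659 of 52386 genes, and the authors' normalized counts, each count divided by 1 size factor per library, for 25157 genes. It also holds the authors' own DESeq2 comparison, with deposited log2 fold changes, p-values and a test statistic (a score per gene).

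The package limma 3.58.1 (R 4.3.3) tested the normalized counts, on log2 of the value plus a pseudocount of 1, with diet as the only term, a mean-variance trend, two-sided p and Benjamini-Hochberg adjustment over all 25157 genes. Adding the pseudocount understates the fold change of low genes. The exact permutation test of 3 against 3 libraries cannot go below p = 0.1 and was not used. Fold changes are food-restricted over control, and intervals cover 95%. Depth was 6515127 to 16763479 counts per library, with the lowest precision for genes of low count. Replicates of 1 diet differed by a chi-square of 3.43 to 15.8 per gene, so no library was counted as a duplicate. Named genes were all 10 clock genes, the called genes and the gene of lowest p of each list, overlapping genes, and the 3 genes with a mean of at least 100 normalized counts most correlated with the clock gene of lowest p. A few list members are not reported here, and other members of the lists were named after their values were seen. The clock genes, lists and markers were chosen with earlier results of these data known. Alternatives were other pseudocounts, a filter at 1 CPM in 3 libraries, TMM, upper-quartile and total-count scaling, removal of a gene length trend (73 genes lacked a length), limma-voom, a replicate block and leaving out each library. Promoter windows came from RefSeq on GRCm38.p6.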

Additional observations from a re-analysis of the deposited data

How the results depend on the processing

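The count of clock genes called was 1 in the test as reported and 2, Nr1d2 and Per3, with the filter at 1 CPM, TMM, upper-quartile or total-count scaling and limma-voom. Leaving out 1 library at a time gave 0 to 1 (0 without control replicate 3 or food-restricted replicate 1), with log2 fold changes of 0.31 to 0.44 for Nr1d2 (not called without control replicate 2 or 3 or food-restricted replicate 1), 0.30 to 0.43 for Per3, -0.020 to 0.057 for Per2, -0.18 to 0.021 for Cry1, 0.060 to 0.26 for Cry2, 0.069 to 0.24 for Dbp, 0.040 to 0.13 for Per1, 0.0035 to 0.10 for Clock, 0.40 to 0.53 for Nr1d1 and -0.35 to -0.19 for Arntl. Per3 passed with log2 fold changes of 0.35 with that filter, 0.36 with TMM, 0.36 with upper-quartile scaling, 0.38 with total-count scaling and 0.36 with limma-voom. Per2 turned to -0.0074 with the gene length trend removed, within its error of 0; without 1 library, Per2 turned to -0.010 and -0.020 and Cry1 to 0.0049 and 0.021. The other clock genes called numbered 5 (4 higher, 1 lower) with limma-voom and 2 to 5 without 1 library, in a comparison added after seeing the data, as were those of Tef, Rora, Thra, Camta1, Sgk1, Fos, Fosb, Jun, Rbm38, Xist and Ddx3y. Over all genes 1193 were called, 564 to 1357 without 1 library and 980 to 1449 under the other settings. In all of these fits the 8 clock genes other than Per2 and Cry1 kept their direction. The cause of these shifts was not tested.

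Libraries with the same number did not deviate together: their correlations over 10060 genes were -0.11, 0.03 and -0.07, and no library correlated best with its own number. With the replicate block 980 genes and 1 clock gene were called, with adjusted p of 0.0139 for Nr1d2 and 0.0713 for Per3. The edgeR and DESeq2 fits were not run, because cells marked as missing kept the columns from being declared as counts. Total-count scaling moved the median of all genes to 0.03 on the log2 scale. Raw counts of Nr1d1 were the lowest of the 10 clock genes.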

Other observations

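Npas2, the paralogue of Clock that can replace it as partner of ARNTL, was low and uneven, at 8.80, 14.2 and 9.18 normalized counts in food-restricted libraries, against 26.7, 5.35 and 5.36 in controls. Control replicate 1 was the highest of the 6 libraries, and Npas2 was named only after its values were seen.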
